A study of Mus musculus with 12 samples.

Results

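The bile acid and organic anion transporters are membrane proteins that move bile acids, bilirubin, hormones and drugs into and out of hepatocytes. This account covers 10 of their genes among the 25164 genes listed for mouse liver RNA. Rows with the symbols Slc10a1, Slco1a1, Slco1a4, Slco1b2, Slco2b1, Abcb11, Abcb4, Abcc2, Abcc3 and Abcc4 were taken, and all 10 were found and tested. The members were named for what their proteins do, although with earlier results of these data known. Liver was taken from 3 groups of mice with 4 libraries each. In the HFD plus fenofibrate group, a high-fat diet lasted 14 weeks, with fenofibrate given by gavage in the last 4 weeks and the diet alone in the 10 weeks before. The HFD group had 14 weeks of high-fat diet without the drug, and the Control group had 14 weeks of normal diet. Each group began with 10 mice. The sources used here do not give strain, sex, age or dose, nor whether a library is 1 animal or a pool, so the tests measure spread among libraries, which may be technical. Fenofibrate lowers blood lipids as an agonist of PPARA, a nuclear receptor. The study was designed around the action of fenofibrate on fatty liver.

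Hepatocytes take up bile acids from sinusoidal blood with the sodium-coupled carrier NTCP, encoded by Slc10a1, and with the sodium-independent organic anion carriers of the Oatp family, encoded by Slco genes. On the opposite, canalicular side, ABC pumps drive bile acids, phospholipid and conjugated anions into bile with ATP. Other ABC pumps of the Abcc family sit on the sinusoidal side and return conjugates and bile acids to blood. In mouse liver the farnesoid X receptor raises transcription of Abcb11, the canalicular bile acid pump. Slco1a1 is known in mice as a gene with higher mRNA in male than in female liver, and Slco1a4 as one with higher mRNA in female liver.

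The 10 transporters held 0.322% to 0.501% of the counts of a library, whose totals ran from 15797016 to 18514481. Levels are given as CPM, counts scaled to a common library size after TMM normalization, and comparisons between genes use CPM per kb of exon. Summed hepatocyte markers ran from 107891 to 140468 CPM in HFD plus fenofibrate libraries, 122713 to 152682 CPM in HFD libraries and 141325 to 169769 CPM in Control libraries. Alb was the largest part of these sums, at 78013 ± 11634 CPM in HFD plus fenofibrate and 106501 ± 10280 CPM in Control (SD). Some libraries stood apart in markers of other tissues. Pancreatic acinar markers summed to 1931 CPM in HFD plus fenofibrate library 1, against 8.47 to 14.1 CPM in the other libraries of that group, 20.4 to 30.4 CPM in HFD and 6.27 to 10.6 CPM in Control. Striated muscle markers summed to 176 CPM in HFD plus fenofibrate library 1 and 138 CPM in library 3, and to 1.01 CPM at most in the other 10 libraries. Erythroid markers reached 1059.9 CPM in HFD plus fenofibrate library 1, against 506 CPM at most elsewhere. Cholangiocyte markers ran from 33.1 to 63.4 CPM with fenofibrate, 46.8 to 100.2 CPM in HFD and 51.4 to 93.1 CPM in Control. Leukocyte markers ran from 275 to 433 CPM with fenofibrate, 238 to 530.3 CPM in HFD and 309 to 425 CPM in Control, stellate and fibroblast markers from 186 to 262, 268 to 311 and 183 to 338 CPM in those groups, and endothelial markers from 254 to 289.8, 183 to 333 and 242 to 326 CPM. The 4 listed intestinal genes summed to 76.1 to 113 CPM with fenofibrate, 107 to 173 CPM in HFD and 49.5 to 77.9 CPM in Control. Of 12 tested hepatocyte markers, 1 fell in HFD against Control, 1 rose and 2 fell in HFD plus fenofibrate against HFD, and none was called in HFD plus fenofibrate against Control. The kidney list had 1 listed gene, Slc12a3, with 8 counts at most in a library. As these are bulk samples, fewer cells of a type and less RNA per cell cannot be told apart. Transporter results whose call or direction depends on HFD plus fenofibrate libraries 1 and 3 are given with and without them. PPARA activation is known to raise its target genes in mouse liver. Here, of 19 such targets, 1 rose and 5 fell in HFD plus fenofibrate against HFD. Of all tested genes, 6.89% rose and 6.59% fell in that comparison. The targets that fell, Fabp1, Plin2 and Vnn1 among them, run against the direction known for the drug on the label. Without HFD plus fenofibrate libraries 1 and 3, none of the targets rose and 2 fell against HFD. With library totals in place of TMM scaling, 4 rose and 4 fell against HFD. Against Control, 4 rose and 1 fell with TMM scaling and all libraries, beside 4.86% and 4.31% of all tested genes. The largest log2 fold changes among them were 1.70 for Cd36 (adjusted p = 3.21e-04), 1.45 for Vnn1 (0.00354) and -1.29 for Plin2 (0.00339). Cyp4a14, a fatty acid hydroxylase gene of that list picked after its values were seen, was not called, at a log2 fold change of 1.05 ± 0.39 (adjusted p = 0.0844). Every fenofibrate value below rests on that label.

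The uptake genes Slco1b2, Slco1a4 and Slco1a1 lie within 317.4 kb on chromosome 6. In the deposited positions, which match GRCm38, Slco1b2 spans chr6:141629518-141686646 on the plus strand, Slco1a4 spans chr6:141805440-141856199 on the minus strand and Slco1a1 spans chr6:141907282-141946962 on the minus strand. The gap between Slco1b2 and Slco1a4 is 118.8 kb and that between Slco1a4 and Slco1a1 is 51.1 kb. Over the 12 libraries Slco1b2 had 223413 counts, Slco1a1 61516 and Slco1a4 25460, while their neighbours Slco1c1 and Slco1a6 had 12 and 6. The other members lie apart, with Slc10a1 on chromosome 12, Slco2b1 on chromosome 7, Abcb11 on chromosome 2, Abcb4 on chromosome 5, Abcc2 on chromosome 19, Abcc3 on chromosome 11 and Abcc4 on chromosome 14.

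The 4 stretches of 250 bases before the RefSeq start (GRCm38.p6) are shown for the chromosome 6 genes and for Abcb11, picked with their values known. In HFD against Control and in HFD plus fenofibrate against HFD, Slco1a1, Slco1b2 and Abcb11 moved one way and Slco1a4 the other. That split did not hold in HFD plus fenofibrate against Control. There the log2 fold changes were -0.28 for Slco1a1, -0.30 for Abcb11, -1.42 for Slco1a4 and 0.49 for Slco1b2, and only Slco1a4 was called. Each stretch runs 5′ to 3′ along its gene, and capitals mark matches on either strand to the 5 motifs searched.
Slco1a1, chr6:141946963-141947212, minus strand: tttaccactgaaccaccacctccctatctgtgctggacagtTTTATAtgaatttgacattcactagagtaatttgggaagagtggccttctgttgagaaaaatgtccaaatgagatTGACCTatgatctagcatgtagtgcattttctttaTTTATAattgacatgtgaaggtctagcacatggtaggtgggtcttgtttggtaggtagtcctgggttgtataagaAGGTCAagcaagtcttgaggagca
Slco1a4, chr6:141856221-141856470, minus strand: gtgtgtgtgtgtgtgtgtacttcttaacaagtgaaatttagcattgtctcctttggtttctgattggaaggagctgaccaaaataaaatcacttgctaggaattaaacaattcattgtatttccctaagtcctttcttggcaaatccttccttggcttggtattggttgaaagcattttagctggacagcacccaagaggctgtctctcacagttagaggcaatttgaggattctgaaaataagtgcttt
Slco1b2, chr6:141629268-141629517, plus strand: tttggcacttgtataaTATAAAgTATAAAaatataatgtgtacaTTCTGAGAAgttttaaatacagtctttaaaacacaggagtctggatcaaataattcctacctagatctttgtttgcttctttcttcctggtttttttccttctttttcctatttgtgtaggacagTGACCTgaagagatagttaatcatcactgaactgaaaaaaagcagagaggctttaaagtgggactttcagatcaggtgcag
Abcb11, chr2:69342617-69342866, minus strand: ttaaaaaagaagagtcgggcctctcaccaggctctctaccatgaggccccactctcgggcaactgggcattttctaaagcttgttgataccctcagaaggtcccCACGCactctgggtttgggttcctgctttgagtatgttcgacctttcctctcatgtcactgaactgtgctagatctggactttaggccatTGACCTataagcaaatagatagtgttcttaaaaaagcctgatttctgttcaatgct
The motifs were the nuclear receptor core AGGTCA, the STAT5-type palindrome TTCNNNGAA, the antioxidant response core TGACNNNGC, the AHR response core GCGTG and the TATA box TATAAA, each read on both strands. Overlaps between them were allowed. The nuclear receptor core lay at positions -134 and -24 before the Slco1a1 start, at -81 before Slco1b2 and at -56 before Abcb11. The Slco1b2 stretch also held the STAT5-type palindrome at -206 and TATA boxes at -234 and -227, the Slco1a1 stretch TATA boxes at -209 and -99, and the Abcb11 stretch the AHR response core at -146. The Slco1a4 stretch held none of the 5. Among members not shown, the nuclear receptor core also lay at -49 before Abcc2, which was called in no comparison. It lay at -87 before a start of Slc10a1 but not before its other start. Slc10a1 rose in both high-fat groups against Control. No such core lay before Slco2b1, called in HFD plus fenofibrate against HFD, or before Abcb4 and Abcc4, called in no comparison. Members not shown held the other motifs too. The STAT5-type palindrome lay before a start of Slc10a1 (-53) and of Slco2b1 (-133), and a TATA box before Slc10a1 (-128). The AHR response core lay before Abcb4 (-6) and a start of Abcc4 (-101 and -94). The antioxidant response core lay before Abcc2 (-98) and both starts of Abcc4 (-25 and -23). Whether the matches go with the calls was not tested. Over 32851 RefSeq stretches of the same length, 14.0% held the nuclear receptor core, 7.02% the STAT5-type palindrome, 10.2% the antioxidant response core, 28.2% the AHR response core and 12.4% the TATA box. A match describes letters and is not a bound site, and a stretch without one is silent on the factor. RefSeq entries matched 9 of the 10 members.

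Per exon length, the uptake carriers Slc10a1 and Slco1b2 had the highest mRNA levels and the exporter Abcc4 the lowest. The length is the union of all annotated exons, from 2199 bases for Slc10a1 to 9383 for Abcb4. No other length was tried, so the order and sums across genes rest on this choice. Slc10a1 led in all 3 groups, with 483 ± 71.6 CPM per kb in HFD plus fenofibrate, 474 ± 47.1 in HFD and 349.6 ± 35.0 in Control (SD, n = 4 each). Slco1b2, which carries unconjugated bile acids and bilirubin, came next with 196 CPM per kb in HFD plus fenofibrate, 329.8 in HFD and 139 in Control. Abcb11 followed with 60.0 CPM per kb in HFD plus fenofibrate, 98.9 in HFD and 74.1 in Control. The library ranges of these top 3 genes did not overlap one another within any group. Below them the order differed. With fenofibrate it ran Abcc3 (55.5), Abcc2 (52.2), Slco1a1 (37.4), Abcb4 (34.4), Slco2b1 (18.2), Slco1a4 (14.0) and Abcc4 (0.507 CPM per kb). Neighbours whose ranges overlapped there were Abcb11 with Abcc3, Abcc3 with Abcc2, Abcc2 with Slco1a1, Slco1a1 with Abcb4, and Slco2b1 with Slco1a4. In HFD the order was Slco1a1 (91.3), Abcc2 (59.6), Abcc3 (43.0), Abcb4 (38.2), Slco2b1 (14.2), Slco1a4 (7.31) and Abcc4 (0.364 CPM per kb), and only Abcb11 with Slco1a1 and Abcc3 with Abcb4 overlapped. In Control it was Abcc3 (62.2), Abcc2 (54.1), Slco1a1 (45.3), Slco1a4 (37.6), Abcb4 (36.2), Slco2b1 (16.7) and Abcc4 (0.591 CPM per kb). In Control, Abcb11 with Abcc3, Abcc3 with Abcc2, Abcc2 with Slco1a1, Slco1a1 with Slco1a4, and Slco1a4 with Abcb4 overlapped. Slco1a4 thus stood at rank 9 of 10 in both high-fat groups and at rank 7 of 10 in Control.

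**Figure D1:**
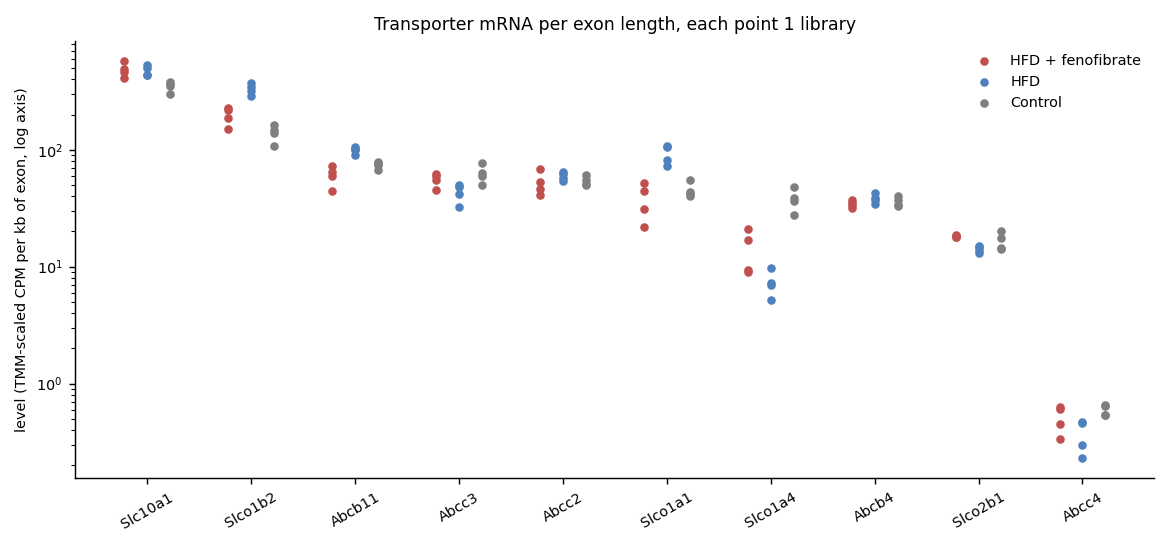
Level of each transporter mRNA in TMM-scaled CPM per kb of exon (log axis), each point 1 library, with HFD plus fenofibrate, HFD and Control side by side for each gene. Slc10a1 lies at the top and Abcc4, with a Control mean of 0.591 CPM per kb, far below the rest.

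In HFD livers against Control livers, 4 transporters rose, 2 fell and 4 were not called. The uptake carriers Slc10a1, Slco1a1 and Slco1b2 and the canalicular bile acid pump Abcb11 were 1.36, 2.01, 2.37 and 1.33 times the Control level. The uptake carrier Slco1a4 fell to a 5.15-fold lower level, and the sinusoidal exporter Abcc3 was 1.45-fold lower. Tests are edgeR's quasi-likelihood F-tests, adjusted by Benjamini-Hochberg over the 13477 genes tested, and a gene is called at an adjusted p under 0.05. Of all tested genes, 12.8% were called, 6.13% rising and 6.64% falling, and 6 of the 10 transporters were. The median log2 fold change was 0.11 over the 10 members and -0.02 over all tested genes.

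In HFD plus fenofibrate livers against HFD livers, 2 transporters rose, 3 fell and 5 were not called. Slco1a1, Slco1b2 and Abcb11 were 2.44, 1.68 and 1.65-fold lower, and Slco1a4 and Slco2b1 were 1.92 and 1.28-fold higher. Of all tested genes 13.5% were called, 6.89% rising and 6.59% falling. The median log2 fold change was -0.06 over the members and 0.01 over all tested genes. Without HFD plus fenofibrate libraries 1 and 3, 1 member rose, Slco1a4, and 1 fell, Slco1a1. Calls over all genes also dropped in that fit, to 55 rising and 69 falling, from 928 and 888 with all libraries.

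In HFD plus fenofibrate livers against Control livers, Slc10a1 rose, at 1.38 times the Control level, Slco1a4 fell to a 2.68-fold lower level, and 8 transporters were not called. Of all tested genes 9.17% were called, 4.86% rising and 4.31% falling. The median log2 fold change was -0.12 over the members and -0.01 over all tested genes. The 3 comparisons share libraries in pairs, so their values are set side by side here and are not independent. With library totals in place of TMM scaling, the share of calls that rose over all genes was 63.7% for HFD against Control, 82.0% for HFD plus fenofibrate against HFD and 87.7% for HFD plus fenofibrate against Control, beside 48.0%, 51.1% and 53.0% with TMM. The median log2 fold change of all genes was then 0.03, 0.18 and 0.20, so changes with fenofibrate are stated relative to the TMM scaling. With totals, signs of members not called turned in HFD plus fenofibrate against Control, to 0.14 for Abcb4, 0.16 for Abcc2, 0.05 for Abcc3 and 0.01 for Abcc4, and against HFD to 0.02 for Abcb4. In the authors' deposited table, all 10 members had the same call at an adjusted p under 0.05 and the same sign as here, in both comparisons it holds.

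**Figure D2:**
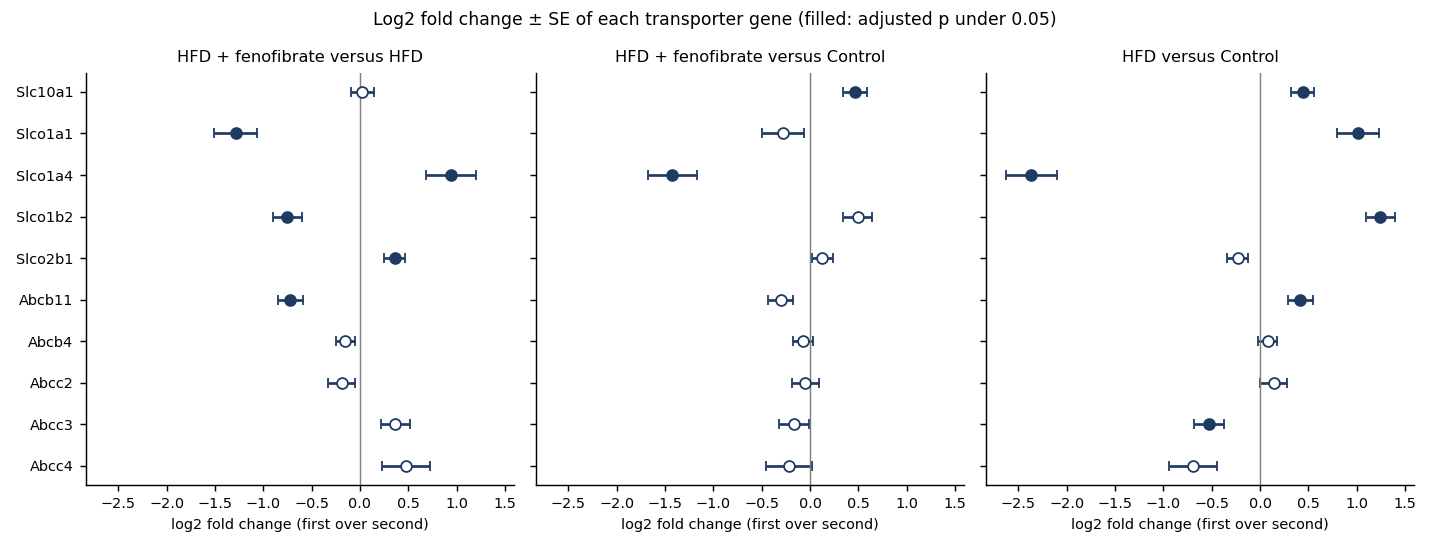
Log2 fold change of each transporter (x axis, first group over second, bars are SE) in HFD plus fenofibrate against HFD, HFD plus fenofibrate against Control and HFD against Control, with filled points for an adjusted p under 0.05. Slco1a4 lies at -2.37 in HFD against Control and 0.94 in HFD plus fenofibrate against HFD, while Slco1a1 and Slco1b2 lie on the opposite sides of 0.

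Among the uptake carriers, Slc10a1 encodes the main sodium-dependent carrier of conjugated bile acids. It had 896, 1272, 1008 and 1070.5 CPM in HFD plus fenofibrate libraries 1 to 4, 1159.9, 962, 949 and 1099 CPM in HFD libraries and 662, 807, 768 and 838 CPM in Control libraries. Every library of both high-fat groups lay above all 4 Control libraries, and the high-fat groups overlapped each other. The log2 fold change was 0.44 ± 0.12 (adjusted p = 0.0286) in HFD against Control and 0.47 ± 0.12 (adjusted p = 0.0271) in HFD plus fenofibrate against Control. Between HFD plus fenofibrate and HFD it was 0.03 ± 0.12 (adjusted p = 0.907) and was not called. The HFD call did not survive leaving out HFD library 1 (adjusted p = 0.0818), HFD library 4 (0.0783), Control library 1 (0.0678) or Control library 3 (0.0585). The call of HFD plus fenofibrate against Control was lost without HFD plus fenofibrate library 2 (adjusted p = 0.0581), without Control library 3 (0.0546), or when the 8 libraries compared were fitted alone (0.0512).

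Slco1a1 encodes Oatp1a1, a carrier of bile acids and sulfated steroids. It had 115, 275, 165 and 235 CPM in HFD plus fenofibrate libraries 1 to 4, 563, 552, 380.2 and 431 CPM in HFD libraries and 214, 292, 221 and 229.6 CPM in Control libraries. HFD libraries stood above all others, and the HFD plus fenofibrate libraries reached from below the Control range into it. Group means were 197 ± 71.2 CPM in HFD plus fenofibrate, 482 ± 90.3 CPM in HFD and 239 ± 36.1 CPM in Control (SD, n = 4 each). Its log2 fold change was 1.01 ± 0.22 (adjusted p = 0.00663) in HFD against Control and -1.29 ± 0.22 (adjusted p = 0.00286) in HFD plus fenofibrate against HFD. Both calls held in all 23 alternatives, and without HFD plus fenofibrate libraries 1 and 3 the second was -0.91. Against Control, HFD plus fenofibrate differed by -0.28 ± 0.21 (adjusted p = 0.458), which was not called, and by 0.10 without HFD plus fenofibrate libraries 1 and 3 (adjusted p = 0.832). Of the 50-base windows of its transcripts, 1.64% also occur in other genes, most often Slco1a4.

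Slco1a4 encodes Oatp1a4, a carrier of bile acids and cardiac glycosides. It had 59.6, 134, 58.2 and 109 CPM in HFD plus fenofibrate libraries 1 to 4, 62.9, 33.3, 46.9 and 44.4 CPM in HFD libraries and 179, 306, 246 and 235 CPM in Control libraries. The Control libraries stood above all libraries of both high-fat groups. HFD plus fenofibrate libraries 1 and 3 lay below HFD library 1, and libraries 2 and 4 above all 4 HFD libraries. Its log2 fold change was -2.37 ± 0.27 (adjusted p = 4.98e-05) in HFD against Control and -1.42 ± 0.26 (adjusted p = 0.00312) in HFD plus fenofibrate against Control, and both calls held in all 23 alternatives. Against HFD, HFD plus fenofibrate was higher by 0.94 ± 0.26 (adjusted p = 0.0273). That call was lost in 5 of the 23 alternatives, among them without HFD plus fenofibrate library 2 (adjusted p = 0.0596), HFD plus fenofibrate library 4 (0.0646), HFD library 2 (0.0719) or HFD library 4 (0.072), and the log2 fold change was 1.38 without HFD plus fenofibrate libraries 1 and 3.

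Slco1b2 encodes Oatp1b2. It had 929, 1071, 737 and 1125 CPM in HFD plus fenofibrate libraries 1 to 4, 1836, 1688, 1556 and 1422 CPM in HFD libraries and 529.6, 722, 691 and 804 CPM in Control libraries. The HFD libraries stood above all others, and HFD plus fenofibrate libraries lay between HFD and Control except that library 3 fell within the Control range. Its log2 fold change was 1.24 ± 0.15 (adjusted p = 8.48e-05) in HFD against Control, a call that held in all 23 alternatives. It was -0.75 ± 0.15 (adjusted p = 0.00586) in HFD plus fenofibrate against HFD, and -0.56 without HFD plus fenofibrate libraries 1 and 3 (adjusted p = 0.123). Against Control, HFD plus fenofibrate differed by 0.49 ± 0.15 (adjusted p = 0.0508), on the edge of the threshold, and was called in 8 of the 23 alternatives. Among them was the fit without HFD plus fenofibrate libraries 1 and 3, at 0.69 (adjusted p = 0.0294).

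Slco2b1 encodes Oatp2b1, a carrier of sulfated steroids and drugs. It had 111, 106, 107 and 109 CPM in HFD plus fenofibrate libraries 1 to 4, 78.5, 87.8, 88.9 and 82.4 CPM in HFD libraries and 119, 85.1, 106 and 86.7 CPM in Control libraries. HFD plus fenofibrate libraries kept within a coefficient of variation of 1.77%, all above the HFD libraries, while Control libraries overlapped both. Its log2 fold change was 0.36 ± 0.11 (adjusted p = 0.0376) in HFD plus fenofibrate against HFD. That call was lost in 10 of the 23 alternatives, among them without HFD plus fenofibrate libraries 1 and 3 (adjusted p = 0.254), with no filter on low counts (0.0506), and when HFD plus fenofibrate library 1, 3 or 4 or any 1 of the 4 HFD libraries was left out (0.0506 to 0.102). HFD differed from Control by -0.23 ± 0.11 (adjusted p = 0.174) and HFD plus fenofibrate from Control by 0.13 ± 0.11 (adjusted p = 0.494), neither called. Exons of the antisense gene Gm15635, with 167 counts over the 12 libraries, cover 7.91% of the Slco2b1 exon bases, and the sources used here do not say whether counting used strand. Slco2b1 itself had 20402 counts.

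**Figure D3:**
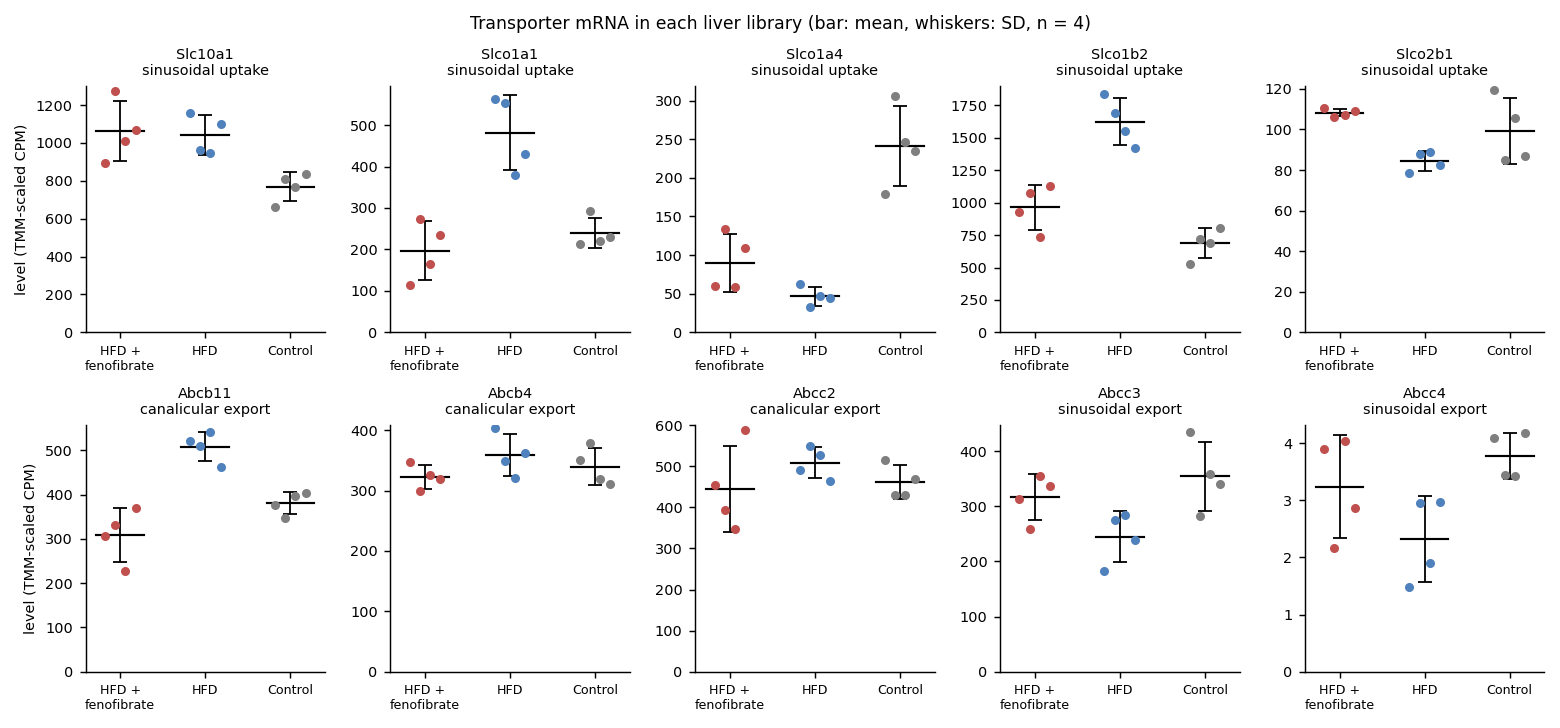
Level of each transporter mRNA in TMM-scaled CPM in the 12 libraries (points), with group mean (bar) and SD (whiskers, n = 4), HFD plus fenofibrate at the left, HFD in the middle and Control at the right. Slco1a1, Slco1b2 and Abcb11 are highest in HFD, and Slco1a4 is highest in Control, at 241 ± 51.9 CPM.

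On the canalicular side, Abcb11 encodes the bile salt export pump. It had 306, 330.4, 228 and 371 CPM in HFD plus fenofibrate libraries 1 to 4, 521, 509.9, 541 and 463 CPM in HFD libraries and 377, 346, 398 and 403 CPM in Control libraries. HFD libraries stood above all others, and HFD plus fenofibrate libraries overlapped the Control range. HFD exceeded Control by a log2 fold change of 0.42 ± 0.13 (adjusted p = 0.0423). That call was lost in 10 of the 23 alternatives, in 9 of them by leaving out HFD plus fenofibrate library 1, any 1 of the 4 HFD libraries or any 1 of the 4 Control libraries (adjusted p = 0.0552 to 0.099). The change was -0.72 ± 0.13 (adjusted p = 0.00346) in HFD plus fenofibrate against HFD, and -0.53 without HFD plus fenofibrate libraries 1 and 3 (adjusted p = 0.0652). HFD plus fenofibrate differed from Control by -0.30 ± 0.13 (adjusted p = 0.149), which was not called. The antisense gene Gm13613, which covers 2.64% of the Abcb11 exon bases, had 60 counts beside 81532 for Abcb11.

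Abcb4 encodes the canalicular floppase that puts phosphatidylcholine into bile and is known as a PPARA target in mouse liver. It had 347, 299, 326 and 319 CPM in HFD plus fenofibrate libraries 1 to 4, 403, 349, 321 and 361 CPM in HFD libraries and 351, 378, 319 and 311 CPM in Control libraries. The groups overlapped in every pair. The log2 fold change was -0.15 ± 0.10 (adjusted p = 0.317) in HFD plus fenofibrate against HFD, 0.08 ± 0.10 (adjusted p = 0.669) in HFD against Control and -0.07 ± 0.10 (adjusted p = 0.693) in HFD plus fenofibrate against Control, none of them called. Of its 50-base windows of transcript, 2.87% also occur in other genes, most often Abcb1a.

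Abcc2 encodes MRP2, the canalicular pump for conjugated bilirubin and glutathione conjugates. It had 454, 392, 348 and 588 CPM in HFD plus fenofibrate libraries 1 to 4, 490.3, 550.0, 527 and 465 CPM in HFD libraries and 516, 429, 431 and 469 CPM in Control libraries. HFD plus fenofibrate libraries spread over the widest range, with a coefficient of variation of 23.4% beside 7.45% in HFD and 8.85% in Control. The log2 fold change was -0.19 ± 0.14 (adjusted p = 0.370) in HFD plus fenofibrate against HFD, 0.14 ± 0.14 (adjusted p = 0.567) in HFD against Control and -0.05 ± 0.14 (adjusted p = 0.869) in HFD plus fenofibrate against Control. Without HFD plus fenofibrate libraries 1 and 3 the last was 0.10 (adjusted p = 0.824). Neither Abcb4 nor Abcc2 was called in any comparison or alternative.

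Of the sinusoidal exporters, Abcc3 encodes MRP3, which returns glucuronides and bile acids to blood. It had 314, 259, 355 and 338 CPM in HFD plus fenofibrate libraries 1 to 4, 183, 275, 283 and 239 CPM in HFD libraries and 435, 283, 359 and 341 CPM in Control libraries. HFD was lowest on average, but its library 3 just passed Control library 2. Its log2 fold change was -0.53 ± 0.15 (adjusted p = 0.0332) in HFD against Control, and that call was lost in 10 of the 23 alternatives, among them totals in place of TMM (adjusted p = 0.123), the 8 libraries alone (0.0554), the fit without HFD plus fenofibrate libraries 1 and 3 (0.0548), and fits without HFD plus fenofibrate library 1, HFD library 1 or 4, or Control library 1, 3 or 4 (0.0514 to 0.123). It was 0.37 ± 0.15 (adjusted p = 0.116) in HFD plus fenofibrate against HFD and -0.17 ± 0.15 (adjusted p = 0.542) in HFD plus fenofibrate against Control, neither called.

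Abcc4 encodes MRP4, a sinusoidal pump for bile acids and cyclic nucleotides. It had 3.90, 2.16, 4.04 and 2.86 CPM in HFD plus fenofibrate libraries 1 to 4, 1.48, 2.94, 1.90 and 2.98 CPM in HFD libraries and 4.08, 3.44, 3.42 and 4.17 CPM in Control libraries. With a mean of 54.6 counts per library its counting error is the largest of the 10. All HFD libraries lay below all Control libraries, yet the log2 fold change of -0.69 ± 0.25 (adjusted p = 0.0808) was not called. It was 0.48 ± 0.25 (adjusted p = 0.201) in HFD plus fenofibrate against HFD and -0.21 ± 0.24 (adjusted p = 0.615) in HFD plus fenofibrate against Control, neither called.

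Within the HFD plus fenofibrate group, libraries 1 and 3 were the lowest 2 of the 4 for 5 of the 10 members, namely Slc10a1, Slco1a1, Slco1a4, Slco1b2 and Abcb11, and the highest 2 for Abcb4 and Abcc4. These are the libraries with striated muscle markers. Their summed hepatocyte markers, of which Alb was the largest part, were 108446 and 107891 CPM, beside 140468 and 118263 CPM in libraries 2 and 4. The part of this in the transporter results was not tested. The share of all tested genes that were lowest in these libraries is not given here. The count is thus not shown to be particular to the transporters. Across members, the coefficient of variation ran from 1.77% for Slco2b1 to 41.5% for Slco1a4 in HFD plus fenofibrate, from 5.76% for Slco2b1 to 32.3% for Abcc4 in HFD, and from 6.75% for Abcb11 to 21.5% for Slco1a4 in Control.

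In HFD against Control and in HFD plus fenofibrate against HFD, the neighbouring genes Slco1a1 and Slco1a4 moved in opposite directions. This shows in their ratio within a library, which library scaling does not touch. Slco1a1 over Slco1a4, per exon length, was 2.34, 2.50, 3.46 and 2.63 in HFD plus fenofibrate libraries 1 to 4, 10.9, 20.2, 9.86 and 11.8 in HFD libraries and 1.45, 1.16, 1.09 and 1.19 in Control libraries. The 3 groups did not overlap, and HFD plus fenofibrate lay between HFD and Control. Abcb11 over Abcc3, canalicular pump over sinusoidal exporter, was 1.08, 1.41, 0.709 and 1.22 in HFD plus fenofibrate, 3.15, 2.05, 2.11 and 2.15 in HFD and 0.960, 1.35, 1.23 and 1.31 in Control. Here HFD stood above both other groups, which overlapped. Slc10a1 over Abcb11, uptake carrier over canalicular pump, was 6.85, 9.01, 10.4 and 6.76 in HFD plus fenofibrate, 5.21, 4.42, 4.10 and 5.55 in HFD and 4.10, 5.45, 4.52 and 4.87 in Control, so that HFD plus fenofibrate stood above the other 2 groups. A ratio shows unequal change and does not say which gene moved, and these ratios were picked with the members' values known and were not tested.

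**Figure D4:**
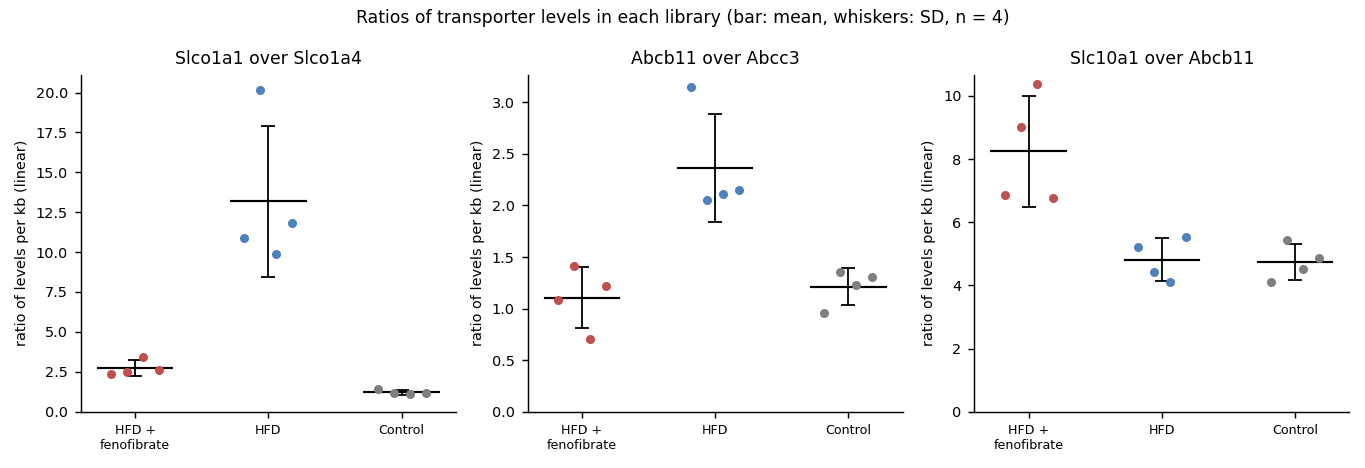
Ratio of 2 transporter levels per kb of exon (linear axis) in each library, with group mean (bar) and SD (whiskers, n = 4), for Slco1a1 over Slco1a4, Abcb11 over Abcc3 and Slc10a1 over Abcb11, with HFD plus fenofibrate at the left, HFD in the middle and Control at the right. The first ratio is 2.73 ± 0.497 in HFD plus fenofibrate, 13.2 ± 4.73 in HFD and 1.22 ± 0.157 in Control.

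Summed over the 5 uptake carriers, the level was 748 ± 113 CPM per kb in HFD plus fenofibrate, 917 ± 80.2 in HFD and 589 ± 65.2 in Control (SD, n = 4 each). Slc10a1 made up 64.6 ± 3.23% of it in HFD plus fenofibrate, 51.7 ± 3.21% in HFD and 59.5 ± 0.981% in Control. The share of Slco1b2 was 26.2 ± 3.27% in HFD plus fenofibrate, 36.0 ± 2.51% in HFD and 23.6 ± 1.61% in Control, and that of Slco1a4 1.82 ± 0.496% in HFD plus fenofibrate, 0.793 ± 0.163% in HFD and 6.36 ± 0.895% in Control. The 3 canalicular pumps summed to 147 ± 22.7 CPM per kb in HFD plus fenofibrate, 197 ± 9.06 in HFD and 164 ± 5.75 in Control. The 2 sinusoidal exporters summed to 56.0 ± 7.45 CPM per kb in HFD plus fenofibrate, 43.4 ± 8.07 in HFD and 62.8 ± 11.03 in Control. These sums describe mRNA and follow their most abundant genes, Slc10a1 and Slco1b2 for uptake.

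Other transporters of bile, sterols and drugs moved in part. Of 14 tested genes in that list, 4 rose and 3 fell in HFD against Control, none rose and 4 fell in HFD plus fenofibrate against HFD, and 2 rose and 1 fell in HFD plus fenofibrate against Control. The prostaglandin carrier gene Slco2a1 fell by 0.74 ± 0.12 (adjusted p = 9.58e-04) on the log2 scale in HFD against Control. The canalicular efflux pump gene Abcg2 fell by 0.93 ± 0.15 (adjusted p = 0.00196) in HFD plus fenofibrate against HFD. Slc10a2, the apical sodium-dependent bile acid carrier of ileum and bile ducts, had a log2 fold change of -1.28 ± 0.25 (adjusted p = 0.00489) in HFD plus fenofibrate against HFD, a call lost without HFD plus fenofibrate libraries 1 and 3 (adjusted p = 0.106). Slc10a2 is also among the cholangiocyte markers, whose summed range is given above. The sterol pump gene Abcg5 had a log2 fold change of 0.60 ± 0.12 (adjusted p = 0.00528) in HFD plus fenofibrate against Control, a call also lost without those libraries (adjusted p = 0.0837). Without them, none of the 14 rose and 1 fell in HFD plus fenofibrate against HFD, and none was called against Control. With totals in place of TMM, 2 rose and 2 fell against HFD, and 2 rose and none fell against Control.

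Of 11 genes for anchoring and trafficking of such transporters, 2 rose in HFD against Control, 2 rose and 2 fell in HFD plus fenofibrate against HFD, and 1 rose in HFD plus fenofibrate against Control. Pdzk1, a scaffold that holds Oatp1a1 at the membrane in mice, had a log2 fold change of 0.59 ± 0.12 (adjusted p = 0.00495) in HFD against Control. Against HFD, HFD plus fenofibrate had a Pdzk1 log2 fold change of -0.53 ± 0.12 (adjusted p = 0.0118), and the call was lost without HFD plus fenofibrate libraries 1 and 3 (adjusted p = 0.176). Without these libraries none of the 11 was called in either comparison with fenofibrate, and of the regulators described next 2 rose against Control and none was called against HFD. Among 16 nuclear receptors and other regulators, 4 rose and 1 fell in HFD against Control, 1 rose and 1 fell in HFD plus fenofibrate against HFD, and 3 rose in HFD plus fenofibrate against Control. Nr3c1, the glucocorticoid receptor, rose in HFD against Control by 0.54 ± 0.09 (adjusted p = 9.58e-04) on the log2 scale. Its log2 fold change was -0.42 ± 0.09 (adjusted p = 0.00764) in HFD plus fenofibrate against HFD, a call lost without libraries 1 and 3 (adjusted p = 0.143). In HFD plus fenofibrate against Control, Ahr, the aryl hydrocarbon receptor, rose by 0.57 ± 0.10 (adjusted p = 0.00217) and Nr1i3, the constitutive androstane receptor CAR, by 0.57 ± 0.11 (adjusted p = 0.00505). With totals in place of TMM, 4 regulators rose and none fell in HFD plus fenofibrate against HFD, and 7 rose against Control. Anchoring and trafficking genes then gave 2 rising and 1 falling against HFD, and 2 rising against Control.

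Of 19 enzyme genes known as targets of CAR, PXR, AHR or NRF2, none rose and 12 fell in HFD against Control, 3 rose and 3 fell in HFD plus fenofibrate against HFD, and none rose and 10 fell in HFD plus fenofibrate against Control. The list median log2 fold change was -0.64, 0.09 and -0.56 in these comparisons. Without HFD plus fenofibrate libraries 1 and 3, none rose and 1 fell against HFD, and none rose and 6 fell against Control. With totals in place of TMM, 4 rose and 3 fell against HFD, and 1 rose and 7 fell against Control. Cyp3a11, a drug-oxidizing P450 under PXR, had a log2 fold change of -2.61 ± 0.18 (adjusted p = 6.22e-07) in HFD against Control. In HFD plus fenofibrate against Control it was -2.76 ± 0.18 (adjusted p = 4.43e-07). Slco1a4 was lower than Control in the same 2 groups. Between these groups Slco1a4 was higher with fenofibrate, by 0.94 ± 0.26 (adjusted p = 0.0273). Cyp3a11 had 1591 ± 423 CPM in HFD plus fenofibrate and 1757 ± 257 CPM in HFD (SD). Shared control was not tested. Of 14 bile acid synthesis genes, 3 rose and 5 fell in HFD against Control, 3 rose and 4 fell in HFD plus fenofibrate against HFD, and 4 fell in HFD plus fenofibrate against Control. Cyp8b1, the sterol hydroxylase of cholic acid synthesis, had a log2 fold change of -1.32 ± 0.23 (adjusted p = 0.00164) in HFD against Control. In HFD plus fenofibrate against HFD its log2 fold change was 0.75 ± 0.23 (adjusted p = 0.0412), a call lost in 8 of the 23 alternatives. Of 19 PPARA targets, 7 rose in HFD against Control, 1 rose and 5 fell in HFD plus fenofibrate against HFD, and 4 rose and 1 fell in HFD plus fenofibrate against Control. The fatty acid binding protein gene Fabp1 had a log2 fold change of 1.87 ± 0.23 (adjusted p = 8.48e-05) in HFD against Control and -1.46 ± 0.22 (adjusted p = 0.00161) in HFD plus fenofibrate against HFD. Without HFD plus fenofibrate libraries 1 and 3, against HFD 1 synthesis gene rose and 2 PPARA targets fell, and against Control 1 synthesis gene fell, 2 PPARA targets rose and 1 fell. With totals in place of TMM, 4 PPARA targets rose and 4 fell in HFD plus fenofibrate against HFD, and 7 rose and 1 fell against Control. Of the synthesis genes, 6 then rose and 3 fell against HFD, and 2 rose and 3 fell against Control.

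Of 13 genes with higher mRNA in male mouse liver, 4 rose in HFD against Control, none rose and 10 fell in HFD plus fenofibrate against HFD, and 1 rose and 6 fell in HFD plus fenofibrate against Control. Serpina12, a secreted serpin, had a log2 fold change of 1.84 ± 0.30 (adjusted p = 9.37e-04) in HFD against Control and -2.21 ± 0.30 (adjusted p = 7.65e-04) in HFD plus fenofibrate against HFD. Of 7 tested genes with higher mRNA in female mouse liver, 2 rose and 3 fell in HFD against Control, 4 rose in HFD plus fenofibrate against HFD, and 2 rose and 1 fell in HFD plus fenofibrate against Control. Cux2, a transcription factor gene of female liver, had a log2 fold change of -5.31 ± 0.47 (adjusted p = 6.07e-06) in HFD against Control. In HFD plus fenofibrate against HFD it was 4.93 ± 0.47 (adjusted p = 4.87e-05). The 2 female-biased genes that rose in HFD against Control were Cyp2b9 and Hao2. Their log2 fold changes were 6.05 ± 0.94 (adjusted p = 6.96e-04) and 4.24 ± 0.985 (adjusted p = 0.0107). Beside these lists, Slco1a1, the transporter with a known male bias, had log2 fold changes of 1.01 ± 0.22 in HFD against Control and -1.29 ± 0.22 in HFD plus fenofibrate against HFD. Slco1a4, with a known female bias, had -2.37 ± 0.27 and 0.94 ± 0.26 in these 2 comparisons. In HFD plus fenofibrate against Control, Slco1a4 was lower too, at -1.42 ± 0.26 (adjusted p = 0.00312). Slco1a1 was not called there, at -0.28 ± 0.21 (adjusted p = 0.458). Without HFD plus fenofibrate libraries 1 and 3, 7 of the 13 male-biased genes fell against HFD and 3 fell against Control, and 3 of 9 then tested female-biased genes rose against HFD.

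Genes whose levels over the 12 libraries were most like those of a called transporter were found by Pearson r of log2 CPM among 7082 genes of at least 10 CPM, as a description. For Slco1b2 they were Nit2 (r = 0.984) and Ugp2 (0.98), for Slc10a1 Pid1 (0.963) and Cd99l2 (0.949), and for Slco1a1 Mup19 (0.955) and Serpina12 (0.949). For Slco1a4 they were Ciapin1 (0.939) and Sult1a1 (0.937), and for Slco2b1 Rnf187 (0.955) and Atf7ip (0.948). For Abcb11 they were Mug2 (0.96) and C1s1 (0.955), and for Abcc3 Trim41 (0.959) and Ncdn (0.956). The points share group, library and scaling.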

How the data were processed

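Liver RNA of 12 libraries, 4 per group, was analysed. The 2 deposited tables, which both hold the 4 HFD libraries, give each Ensembl gene an unnormalized read count, per the file headers. Per the submitters' processing notes, the tools were HTSeq 0.6.0, HISAT2 2.0.5 and StringTie 1.3.2d. The notes list builds mm8 and mm9, yet 92.5% of 25113 identifiers have their GENCODE M21 (GRCm38) position. The sources used here give no strand setting. The authors' log2 fold changes, fold changes (ratios) and p-values stand in the same tables as deposited, with no test named.

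The tables share 22657 genes, and a gene absent from a table (1389 from the diet table, 1118 from the fenofibrate table) was given 0 there. The HFD counts differed in 0 of 90628 cells, and 22 symbols written as dates were restored by identifier.

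In R 4.3.3, edgeR 4.0.16 kept genes passing filterByExpr (13477 of 25164, 99.87% of counts), scaled by TMM (factors 0.884 to 1.161) and fitted 1 quasi-likelihood model to all 12 libraries, with prior count 0.125 and Benjamini-Hochberg adjustment. SE is the size of the log2 fold change over the square root of F. The common biological coefficient of variation was 0.155, and chi-square per gene between libraries of a group was 15.1 to 42.3 over 18 pairs, so no library was a repeat. Replicate numbers were not taken as pairs, and the check stands with the alternatives. Length is the union of GENCODE M21 exons. The steps were tested on simulated data. Alternatives were DESeq2 1.42.0, limma-voom (limma 3.58.1), other scaling, filters and prior counts, the 20 most abundant genes left out, the 8 libraries compared, the replicate block, and libraries left out.

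The members, the 8 pathway lists and the 10 marker lists were chosen with earlier results of these data known. All members were named, at most 3 passing genes with the largest change per pathway list and comparison, and the 2 most alike genes per called member. A regulator that the rule would name is not reported here.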

Additional observations from a re-analysis of the deposited data

How the results depend on the processing

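Of 13 called transporter results, 5 kept their call in all 23 alternatives, and no called result changed sign. These 5 were Slco1a1, Slco1a4 and Slco1b2 in HFD against Control, Slco1a1 in HFD plus fenofibrate against HFD, and Slco1a4 in HFD plus fenofibrate against Control. Of 17 results not called, 16 were called in no alternative, and Slco1b2 in HFD plus fenofibrate against Control was called in 8. With totals in place of TMM, 523 genes fell in HFD against Control, 2059 rose and 451 fell in HFD plus fenofibrate against HFD, and 2119 rose and 298 fell in HFD plus fenofibrate against Control. Without HFD plus fenofibrate libraries 1 and 3, 55 genes rose and 69 fell against HFD, and 215 rose and 158 fell against Control. The main counts were 826 and 895 genes rising and falling in HFD against Control, 928 and 888 in HFD plus fenofibrate against HFD, and 655 and 581 in HFD plus fenofibrate against Control. Leaving out 1 library gave 550 to 832 rising and 554 to 930 falling genes in HFD against Control, 282 to 1210 and 328 to 1206 in HFD plus fenofibrate against HFD, and 383 to 858 and 310 to 852 in HFD plus fenofibrate against Control. These fits lose libraries, and no other cause of the moved counts was tested.

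Among the transporters in HFD against Control, 1 fell with totals, the 8 libraries alone, the replicate block or without HFD plus fenofibrate libraries 1 and 3, and leaving out 1 library gave 2 to 4 rising and 1 to 2 falling. In HFD plus fenofibrate against HFD, 1 rose with no filter, 0 rose with the replicate block, 1 rose and 1 fell without HFD plus fenofibrate libraries 1 and 3, and leaving out 1 library gave 0 to 2 rising and 3 falling. In HFD plus fenofibrate against Control, 2 rose with RLE factors, totals, no filter, DESeq2, the 20 most abundant genes left out or without HFD plus fenofibrate libraries 1 and 3, 0 rose with the 8 libraries alone, and leaving out 1 library gave 0 to 2 rising and 1 falling. Same-numbered libraries had r from -0.175 to 0.139 after group means were removed, and 0 of 12 libraries matched best with their own number, so they share only a number. With the replicate block, adjusted p was 0.0684 for Abcb11 and 0.0526 for Abcc3 in HFD against Control, and 0.0554 for Slco1a4 and 0.0527 for Slco2b1 in HFD plus fenofibrate against HFD, and no other member's call was lost. Depth limits Abcc4, with 54.6 counts per library on average.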
